A study of Mus musculus with 9 samples.

Results

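The stretch described here is the part of mouse chromosome 13 between 60 and 70 Mb (mm10), which holds a cluster of zinc-finger genes. Its members were all repeat copies of the count table whose listed start was at least 60000000 and below 70000000, whatever their repeat class. They numbered 4436 of 623916 copies in the whole table, or 0.711%. The copies were selected on position alone, but the stretch itself was chosen by the measured differences between G4 Terc-/- and wild-type cells in these libraries, so the differences between groups are given for it as a description, and no test was made of the stretch as a whole.

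The libraries were made from C57BL/6 embryonic stem cells (ESCs), 3 each from wild-type (WT) cells, Terc-/- cells of the first generation (G1) and Terc-/- cells of the fourth generation (G4). Terc encodes the RNA component of telomerase, and telomeres shorten over the generations of mice that lack it, so the comparison sets ESCs with short telomeres against ESCs whose telomeres are longer. The lines came from blastocysts, and feeder cells were removed before RNA extraction. The methods of the study give 2 biological replicates per line, whereas 3 libraries per group are listed, and the labels do not say whether these came from separate lines or cultures. The p-values and SDs therefore measure the spread between these libraries, which may be technical.

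Tandem C2H2 zinc-finger proteins are the largest family of mammalian transcription factors, and their genes lie in clusters that grew by duplication. Many carry a KRAB domain, which binds TRIM28 (KAP1), and through it the H3K9 methyltransferase SETDB1. Each such protein reads a DNA sequence with its array of fingers, and many of these sequences lie in retrotransposons, which the bound complex keeps silent in ESCs. On chromosome 13 the cluster includes Rsl1, a regulator of sex-limited liver genes.

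In GENCODE M21, 379 genes started in the stretch, 104 of them protein-coding. At least 3 matches to the C2H2 finger pattern were found in a translated transcript for 40 of these 104 (38.5%), compared with 601 of 22028 protein-coding genes (2.73%) in the genome, and 34 of the 40 also held a KRAB-like stretch. This count of fingers was added after the data had been seen. By name, 28 genes of the stretch began with Zfp, and 27 of them were among the 40.

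The members were 1866 LTR elements, 1445 SINEs, 1060 LINEs and 65 DNA transposons of 395 repeat names. Of these copies 2245 lay in introns, 997 were over 5 kb from any annotated gene, 895 lay within 5 kb of one and 299 had at least 0.5 of their length in exons. All members had some counts, but only 1812 had at least 5 over the 9 libraries, and 216 passed the filter on low counts and were tested. A copy that is high in only 1 group can pass that filter through that group, so the tested copies do not stand for all members. They lay in 79 groups of copies less than 10 kb apart.

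The sequences of the copies themselves are not shown, since no genome sequence was used here. Promoters were available from RefSeq (GRCm38.p6, which is mm10) for 169 transcript starts of the stretch. Of these, 5 starts (2.96%) lay inside a repeat copy of the table, compared with 836 of 32851 (2.54%) in the genome. Below are the 250 bases before the start of Urml, whose start lies in a MMVL30-int copy that was lower in both Terc-/- groups (chr13:68234732-68234981, minus strand), of Gm33043, whose start lies in a RMER16-int copy of a repeat unit that was higher in both Terc-/- groups (chr13:66370697-66370946, minus strand), and of Zfp459, the zinc-finger gene with the largest rise (chr13:67421419-67421668, minus strand). Bases inside a repeat copy of the table are in capitals and all other bases are in lower case.
Urml: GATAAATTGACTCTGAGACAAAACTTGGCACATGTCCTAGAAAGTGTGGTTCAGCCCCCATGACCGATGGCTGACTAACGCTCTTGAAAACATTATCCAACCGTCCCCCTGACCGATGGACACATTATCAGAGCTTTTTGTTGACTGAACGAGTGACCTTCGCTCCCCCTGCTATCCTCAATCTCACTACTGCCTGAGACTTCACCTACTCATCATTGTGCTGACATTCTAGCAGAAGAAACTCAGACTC
Gm33043: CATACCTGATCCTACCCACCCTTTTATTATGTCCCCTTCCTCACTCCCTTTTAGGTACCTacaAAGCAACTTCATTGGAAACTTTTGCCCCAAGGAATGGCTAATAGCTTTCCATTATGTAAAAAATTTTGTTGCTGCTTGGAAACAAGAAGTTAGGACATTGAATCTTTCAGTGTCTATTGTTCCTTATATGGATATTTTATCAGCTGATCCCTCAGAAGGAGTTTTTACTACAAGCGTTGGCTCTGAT
Zfp459: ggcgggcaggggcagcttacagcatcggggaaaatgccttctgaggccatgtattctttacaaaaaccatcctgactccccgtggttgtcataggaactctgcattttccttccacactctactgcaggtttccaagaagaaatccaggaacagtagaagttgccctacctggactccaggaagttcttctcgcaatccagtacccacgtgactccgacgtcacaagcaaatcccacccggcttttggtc
All 250 bases of the Urml window and 247 of the Gm33043 window lay in repeat copies, and none of the Zfp459 window did. The windows held 6, 1 and 8 CpG dinucleotides respectively, beside a median of 6 over all 32851 windows.

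The libraries held between 918879 and 1137257 counts, so 1 CPM (counts scaled to 1000000) corresponded to about 1 count, and copies or genes of a few CPM rest on a few counts. Pairs of libraries of 1 group gave chi-square values of 1.47 to 2.77 per degree of freedom, so that no pair agreed within sampling noise. Terc overlapped 0 copies of the table, so its loss could not be checked. Marker genes could be read only through repeat copies in their exons. All 4 tested ESC markers (Tdgf1, Tfcp2l1, Nanog and Esrrb) rose in G4, from a summed level of 6685 to 7235 CPM in WT to 22936 to 26962 CPM, and the G1 libraries lay between at 10518 to 11243 CPM. All 4 tested markers of primitive endoderm (Col4a2, Gata4, Sox7 and Pdgfra), the extraembryonic layer that ESC cultures can form, fell from 4476 to 4594 CPM in WT to 1934 to 2077 CPM in G1 and 107.9 to 132.3 CPM in G4. Both tested fibroblast markers (Col1a1 and Fn1) rose, from 38.71 to 61.54 CPM in WT to 115.6 to 117.2 CPM in G4. The 2-cell-like markers read here (Tcstv1 and Usp17la) had too few counts to be tested. Their summed level was 0 to 2.09 CPM in WT, 0 CPM in G1 and 7.20 to 16.52 CPM in G4. These markers moved with the groups as did the values below, and their part in those values was not tested. In such bulk samples a change in the share of cells of a type and a change in RNA per cell cannot be told apart.

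The summed level of the stretch was higher in G4 than in the other groups. In WT it was 6289, 6233 and 6158 CPM of the library total in the 3 libraries. In G1 it was 6751, 6904 and 6896 CPM. In G4 it was 11731, 11331 and 11862 CPM. The 3 groups did not overlap. The means were 6227 ± 65.6 CPM in WT, 6850 ± 85.9 CPM in G1 and 11641 ± 276 CPM in G4 (SD, n = 3 each), and the G4 mean was 1.87 times that of WT. The most abundant copy held 2.87% of the counts of the stretch and the 10 most abundant held 12.5%. Without those 10 copies the G4 mean was 1.89 times the WT mean.

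Within the stretch the difference was uneven, as the plot of levels per megabase shows. In the first megabase no copy was tested and the summed level was low in all groups (68.1 ± 12.3 CPM in WT and 49.6 ± 2.51 CPM in G4). In the second megabase it was 131.3 ± 11.0 CPM in WT, 194.8 ± 30.4 CPM in G1 and 811.6 ± 35.7 CPM in G4, which was 6.18 times the WT level. In the third megabase WT and G1 were level at 633.9 ± 8.11 and 635.5 ± 68.6 CPM and G4 was at 1839 ± 94.9 CPM. In the fourth, WT was at 123.1 ± 6.8 CPM, G1 at 141.7 ± 5.33 CPM and G4 at 211.4 ± 5.15 CPM, which was 1.72 times the WT level. From 5 to 8 Mb beyond the start the ratios of G4 to WT per megabase were 1.77, 2.08 and 1.88. In the first 2 of those 3 bins the G1 libraries were also above all WT libraries, at 1642 ± 54.5 against 1368 ± 79.6 CPM and 1784 ± 52.1 against 1322 ± 12.7 CPM, whereas in the third of them the G1 libraries (1385 ± 51.9 CPM) overlapped the WT libraries (1419 ± 40.8 CPM). In the fifth megabase and in the last the ratios of G4 to WT were 0.983 and 0.937, and the libraries of the groups overlapped. The ninth megabase ran the other way, from 389.7 ± 18.7 CPM in WT through 264.2 ± 27.4 CPM in G1 to 137.3 ± 17.9 CPM in G4.

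**Figure D1:**
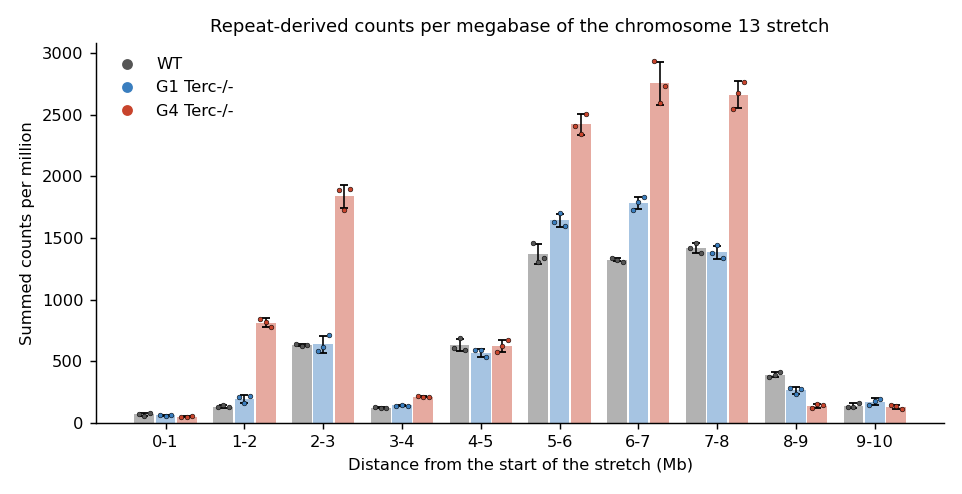
Summed CPM of all repeat copies, relative to the library total, in each megabase of the stretch, by distance from its start, for WT, G1 Terc-/- and G4 Terc-/- ESCs; bars are means, error bars the SD and points the 3 libraries of a group. G4 exceeded WT most between 1 and 3 Mb and between 5 and 8 Mb, and was below WT between 8 and 9 Mb. In the fourth megabase G4 was also above WT, at a low level.

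Copies were tested in edgeR with all 9 libraries and all 13278 copies that passed the filter, and a copy is said to have risen or fallen where its p-value adjusted over all of them was under 0.05. In G4 against WT, 99 of the 216 tested copies of the stretch rose (45.8%) and 14 fell (6.48%), beside 21.3% rising and 21.3% falling over all tested copies. These calls come from the contrast on which the stretch was singled out. The 3 G4 libraries lay clear of the 3 WT libraries for 95 of the 99 and for all 14, and the difference was at least 2-fold for 80 and 14. Called or not, 119 of the 216 lay clear above WT and 17 clear below, beside 3490 and 3435 of all 13278 tested copies. The median log2 fold change was 0.77 over the tested copies of the stretch and −0.02 over all tested copies. In G4 against G1, which shares the G4 libraries, 81 rose and 15 fell (background 19% and 19.2%), with a median of 0.64. Rises were found in 48 of the 79 groups of neighbouring copies and falls in 5, and no group held both.

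In G1 against WT, 3 copies rose and 3 fell, or 1.39% in each direction, beside 2.41% and 4.36% over all tested copies. The 3 rises became 1 without any single WT library, without G1 replicate 1 or 2 or without G4 replicate 2 or 3, and 0 without G1 replicate 3, and the 3 falls became 1 without G1 replicate 2. The median log2 fold change was 0.11 in the stretch and 0.01 over all tested copies. The distribution of fold changes in the stretch was shifted to the right in G4 but close to that of other copies in G1.

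**Figure D2:**
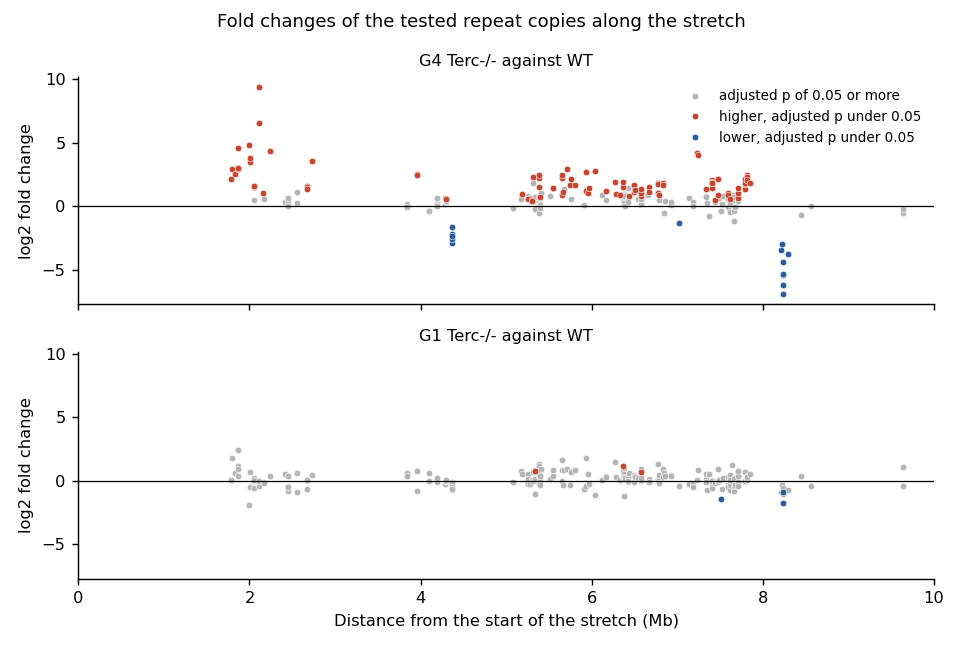
log2 fold change of each of the 216 tested copies against its distance from the start of the stretch, for G4 Terc-/- against WT (top) and G1 Terc-/- against WT (bottom); colours mark an adjusted p under 0.05. Rises in G4 lay between 1 and 8 Mb from the start, with 1 of them in the fifth megabase, and the falls lay in Ctsl, at 4933433G19Rik and between 8 and 9 Mb.

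**Figure D3:**
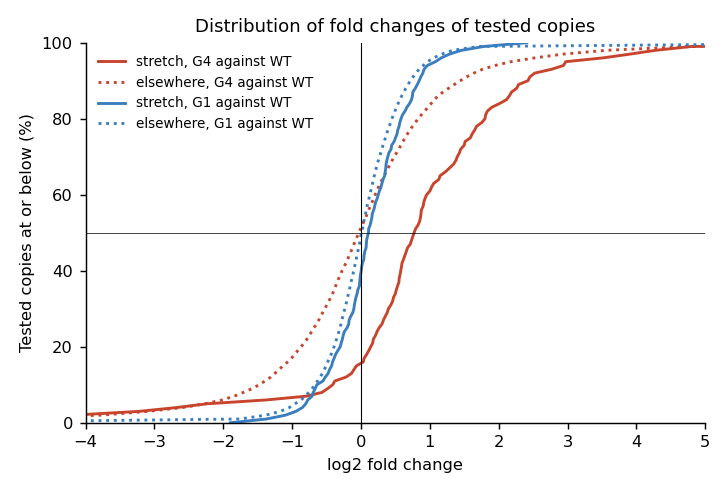
Cumulative percentage of tested copies by log2 fold change, for copies of the stretch (solid) and all other tested copies (dotted), in G4 against WT (red) and G1 against WT (blue). In G4 the median copy of the stretch lay at 0.77, whereas the median of the copies elsewhere was −0.03.

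The values are set beside those of other stretches without a test of the difference. In the 10 Mb before the stretch 11 of 64 tested copies rose in G4 and 12 fell, with a median log2 fold change of −0.05. In the 10 Mb after it 38 of 68 rose and 4 fell, with a median of 0.97. In the zinc-finger cluster at the far end of chromosome 2, 66 of 137 rose and 2 fell (median 0.80), and in that of chromosome 4, 56 of 135 rose and 4 fell (median 0.66). On the rest of chromosome 13 the summed level in G4 was 1.05 times that in WT, and the median was 0.04. The first tested copy inside the stretch was a L1_Mus3 copy at 61781019 (2.16) and the last a MTE2a copy at 69641310 (−0.24), and the nearest tested copies outside it were a L1_Mur3 copy at 59830712 in Gm34961 (−2.91) and a L1Md_T copy at 72385774 (−0.61), all as log2 fold changes of G4 against WT.

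By repeat class, of 144 tested LTR copies 69 rose and 9 fell, with a median log2 fold change of 0.86. Of 40 LINE copies 20 rose and 2 fell (median 0.67), and of 30 SINE copies 9 rose and 2 fell (median 0.48). Among all tested copies 29.5% of LTR, 19.7% of LINE and 17.2% of SINE copies rose and 23.9%, 19.8% and 19.9% fell. Among the LTR families, 32 of 49 tested ERVK copies rose and none fell, with a summed level of 1068 ± 38.4 CPM in WT, 1287 ± 19.3 CPM in G1 and 2647 ± 25.6 CPM in G4. The ERV1 copies were mixed, with 9 of 23 rising and 7 falling, and their summed level was 673.1 ± 6.65 CPM in WT, 581.3 ± 30.0 CPM in G1 and 877.9 ± 24.3 CPM in G4. Of 68 tested ERVL-MaLR copies 27 rose and 2 fell. Shares of these families over the whole table were not counted, so their calls here have no background of their own. By position, 28 of 48 intronic copies rose and 1 fell, beside 18.9% rising and 17.9% falling among intronic copies of the whole table. Near genes 30 of 62 rose and none fell (28.1% and 21% over the table), far from genes 14 of 29 rose and 8 fell (25.2% and 30.4%), and in exons 27 of 77 rose and 5 fell (20.5% and 21.7%). The copies that rose differed from their consensus at a median of 151 positions in 1000, those that fell at 122 and the others at 195.

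To set copies against others of the same repeat name, 67 names with at least 5 tested copies elsewhere were compared. The 191 copies of these names in the stretch had a median log2 fold change of 0.76 in G4 against WT. Each of the 191 was also given the median of its own name elsewhere, and the median of those values was 0.31. Names with many copies in the stretch thus weigh more in that 0.31, which is not the median over the 67 names. Of the 191 copies, 120 lay above the median of their own name elsewhere. RLTR9E, an ERVK long terminal repeat, was the commonest name, with 17 of its 31 tested copies (54.8%) in the stretch, where 12.6% of all its copies lie. Of these 17, 11 rose and none fell, with a median of 0.91, and elsewhere 11 of 14 rose with a median of 1.97. All 17 lay outside exons, and all had an ORR1A4 or ORR1B1 copy within 3 kb. Only 1 of the 17 had whole counts in every library, which means that reads had been divided among copies for the other 16. Summed over its 33 copies in the stretch, RLTR9E was at 242.5 ± 14.7 CPM in WT, 317.0 ± 11.2 CPM in G1 and 507.4 ± 16.1 CPM in G4.

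The names ORR1A3-int, RMER16-int and Lx2B, a MaLR internal part, an ERVK-type internal part and an old LINE-1, were seen side by side at several places in the stretch, and this arrangement was counted after the values had been seen. With gaps of at most 1000 bp between neighbours there were 18 such units in the stretch and 18 in the whole table, so that none lay elsewhere. They were spread from 65312229 to 66829915 and held 70 copies, of which 17 were tested. Summed over the 18 units the level was 215.3, 285.0 and 289.2 CPM in WT, 348.2, 348.0 and 380.7 CPM in G1 and 820.2, 773.3 and 821.2 CPM in G4. The mean of G4 was above that of WT for all 18 units, and the libraries did not overlap for 14 of them. G1 was clear above WT for 3. Of all 13278 tested copies, which are single copies and not units, 3490 lay clear above WT in G4 and 1496 in G1. Several units held no tested copy and rested on few counts. The unit at 66145915 was level, with 0.939 ± 1.63 CPM in WT and 0.991 ± 0.0851 CPM in G4. The most abundant unit (chr13:66497363-66498603) was at 101.9 ± 19.7 CPM in WT, 122.6 ± 12.4 CPM in G1 and 293.4 ± 11.5 CPM in G4. The second by its G4 level (chr13:65380980-65382088), which overlaps Gm40983, was at 23.86 ± 11.1, 38.26 ± 7.25 and 116.0 ± 11.8 CPM. Since the units share sequence, and only 25 of the 70 copies had whole counts throughout, they are not independent of each other, and which unit a read came from is uncertain.

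Among copies with a mean of at least 10 counts, most of the 6 largest rises lay in the second megabase and the next. Several of them were in introns of Gm48228, a gene of unknown function. An ORR1A0 copy there (chr13:62112043-62112387, plus strand) had no counts in any WT or G1 library and 55.05, 93.40 and 90.02 CPM in G4. Over the group this was 252 counts against 0, or at least 79.8-fold higher than WT when 3 counts are allowed to WT as a group. A L1_Mus3 copy just before it (chr13:62107164-62110203, minus strand) was at 1.04, 0 and 2.89 CPM in WT, at 2.09, 0.888 and 0 CPM in G1 and at 126.6, 138.3 and 155.7 CPM in G4. Its log2 fold change was 6.57 ± 0.36 (SE) in G4 against WT. Both copies were thus near 0 in 6 libraries and among the more abundant of the stretch in the other 3.

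An ERVB4_1B-I_MM-int copy in the same gene (chr13:62010034-62012834) rose from 4.17, 0 and 2.89 CPM in WT to 35.23, 39.37 and 27.01 CPM in G4, a log2 fold change of 3.77 ± 0.52. Before it, outside annotated genes, a RLTR13A3 copy (chr13:61864859-61865788) rose from 3.13, 7.32 and 8.66 CPM to 55.05, 60.43 and 41.41 CPM, and the RLTR11A copy beside it (chr13:61862926-61863357) by 2.94 ± 0.46. A second RLTR11A copy, in Gm48228 (chr13:62052185-62052696), was one of the 6 most abundant copies of the stretch and rose from 62.61, 42.90 and 47.12 CPM to 142.0, 141.9 and 144.0 CPM. None of these 6 copies was called in G1 against WT. All 8 tested copies of the second megabase rose in G4.

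Farther along, a MMETn-int copy (chr13:67234225-67238636) lay outside annotated genes. MMETn elements are non-coding relatives of the mobile MusD retroviruses. Its level was 7.30, 3.14 and 9.62 CPM in WT, 9.41, 4.44 and 7.71 CPM in G1 and 137.6, 118.1 and 120.6 CPM in G4. Only the G4 libraries were high, and the log2 fold change was 4.19 ± 0.27. The RLTR13G copy that follows it (chr13:67238767-67239014) rose as well, from 2 counts in WT to 40 in G4, or 19.0 times (4.92 to 162, 95% interval for counting error only). It was named after its values had been seen.

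**Figure D4:**
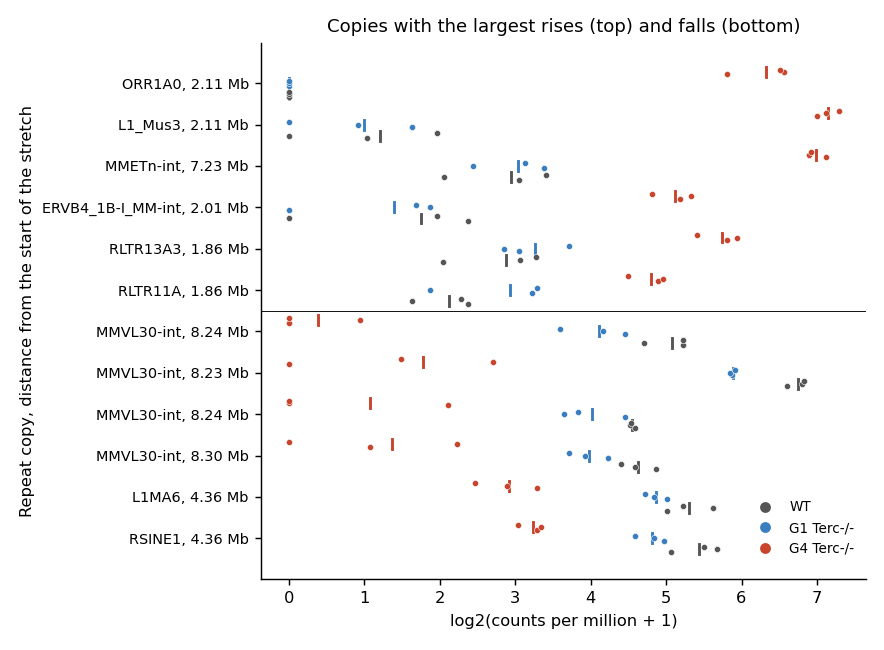
Level of the copies with the 6 largest rises and 6 largest falls in G4 Terc-/- against WT, on a scale of log2(CPM + 1); points are libraries and bars the group means. The copies were selected for libraries of WT and G4 that do not overlap, and the G1 means lay between WT and G4 for the MMVL30-int copies.

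Most falls lay in the ninth megabase. Of the 14 copies that fell in G4, 8 lay between 68213756 and 68300626, 5 in Ctsl and 1 in an intron of 4933433G19Rik. The first 8 included 5 MMVL30-int copies. VL30 elements are retrovirus-like repeats that encode no working proteins and are transcribed in many mouse cells. The most abundant (chr13:68233440-68235807, minus strand), which holds the start of Urml shown above, was at 96.0, 110.9 and 112.5 CPM in WT, 57.49, 56.80 and 59.50 CPM in G1 and 0, 5.49 and 1.80 CPM in G4. The 3 groups were thus stepped, without overlap. The log2 fold change was −5.31 ± 0.33 in G4 and −0.88 ± 0.19 in G1, where the adjusted p of edgeR was 0.00454. The copy beside it (chr13:68235881-68236581) fell from 97 counts in WT to 1 in G4, or 0.00979 times (0.000245 to 0.0558, 95% interval for counting error only), and the next (chr13:68237008-68237777) from 66 counts to 3.

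A separate MMVL30-int copy on the other strand (chr13:68297862-68300626) fell from 28.17, 23.02 and 20.19 CPM in WT to 1.10, 3.66 and 0 CPM in G4, with G1 between at 17.77, 14.20 and 12.12 CPM. An ORR1C2 copy next to the first group (chr13:68232595-68232828) had 43 counts in WT and none in G4, at most 0.0662 of the WT level when 3 counts are allowed to G4 as a group. Elsewhere in the genome 27 of 42 tested MMVL30-int copies fell in G4 and 5 rose, with a median log2 fold change of −1.29, beside −4.07 for the 6 tested copies of the stretch. The sixth, in an intron of Gm26754, had a mean of 18.63 CPM in WT and of 19.25 CPM in G4.

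Repeat copies in exons gave a reading of 45 genes of the stretch, of 104 that had such a copy. Each gene's counts were summed over its exonic copies and tested together with the genes of the whole table, 4735 in all. In G4 against WT 21 of the 45 rose and 4 fell, beside 24.4% rising and 24% falling over all tested genes. In G4 against G1 20 rose and 6 fell (background 20.7% and 22.3%), and in G1 against WT none rose and 1 fell (4.58% and 6.5%). The 4 falls in G4 against WT became 2 without WT replicate 1, G4 replicate 1 or G4 replicate 2, and the 6 in G4 against G1 became 3 without G1 replicate 2 or G4 replicate 1 and 2 without G4 replicate 2. In edgeR 0 genes rose in G1 after adjustment and 0 in DESeq2, and 2 (Gm19792 and Mterf3) had an unadjusted edgeR p under 0.05 in that direction. The median log2 fold change in G4 against WT was 0.44 for the 45 genes and 0.01 over all.

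Of the 28 genes named Zfp, 18 were tested. In G4 against WT 9 rose, 1 fell and 8 did not pass the test, with a median log2 fold change of 0.46. Their summed level was 1234 ± 45.7 CPM in WT, 1167 ± 39.6 CPM in G1 and 1912 ± 96.0 CPM in G4. Of the 20 tested genes with at least 3 fingers 9 rose, 1 fell and 10 did not pass, with Platr25 in and Zfp367 out of the list. What DNA their fingers read was not measured here.

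The largest rise was that of Zfp459 (chr13:67405709-67421418), read through 7 copies. Its level was 85.74, 69.94 and 60.54 CPM in WT, 62.17, 58.81 and 88.18 CPM in G1 and 241.6, 262.2 and 244.4 CPM in G4. The G4 libraries were all well above the other 6, which overlapped, and the log2 fold change was 1.79 ± 0.15 in G4 against WT. All 5 of its copies tested singly, 2 RMER5, 2 MTC and 1 ORR1A2 copy of the 3′ UTR with whole counts in every library, rose by 1.41 to 2.07. Zfp493 (chr13:67779693-67792512), at the end of the cluster, went from 41.28, 45.93 and 24.99 CPM in WT to 103.7, 108.1 and 162.7 CPM in G4, by 1.75 ± 0.21. G1 lay at 30.01, 51.46 and 42.96 CPM, across the WT range.

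Zfp874b rose by 1.18 ± 0.23 and its near neighbour Zfp874a by 0.44 ± 0.13. In Zfp874b the WT libraries were at 23.29, 21.92 and 43.24 CPM and the G4 libraries at 73.76, 64.67 and 65.23 CPM. In Zfp874a they were at 127.0, 173.3 and 142.2 CPM and at 198.8, 192.2 and 210.5 CPM. The G4 libraries were above all WT libraries in both. Genes of such a pair resemble each other, so that reads could have been divided between them. Gm48899, on the opposite strand within Zfp874b, rose by 0.98 ± 0.28. Without strand information the reads of Gm48899 and Zfp874b cannot be told apart, and both are counted among the genes that rose. Zfp953 rose from 58.52 ± 8.14 to 102.3 ± 10.2 CPM (0.81 ± 0.17) and Zfp65 from 146.4 ± 4.89 to 228.5 ± 13.7 CPM (0.64 ± 0.12). In both the G1 libraries overlapped the WT libraries.

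Smaller or less stable rises were those of Zfp369, Zfp729b and Zfp367. Zfp369, the most abundant of the list, was at 263.6, 196.3 and 193.2 CPM in WT and 239.4, 278.2 and 300.1 CPM in G4, so the groups overlapped. Its log2 fold change was 0.33 ± 0.12, and the call was lost without WT replicate 2 (0.24), without WT replicate 3 (0.26) or without G4 replicate 3 (0.29). It is read mainly through a L1_Mus1 copy in its coding exon (chr13:65300836-65304034), the most abundant copy of the stretch. That copy had a mean of 211.1 CPM in WT and of 278.3 CPM in G4, and its call was lost without the same libraries. Zfp729b also overlapped between the groups (80.32 ± 7.49 against 105.6 ± 19.7 CPM), and Zfp367 rested on 5.33 ± 2.92 CPM in WT and 14.0 ± 1.89 CPM in G4. Zfp729b was no longer called without WT replicate 2 or 3, G1 replicate 1 or 3, or G4 replicate 2 or 3, nor with a replicate block (0.40), and Zfp367 was not called without WT replicate 1 or 2 or G4 replicate 1 or 2. Their log2 fold changes were then 0.31 to 0.40 and 1.08 to 1.35, and neither was called by DESeq2 or with a looser filter. Zfp367 is the one Zfp gene of the stretch with fewer than 3 finger matches, and it lies between Slc35d2 and Habp4, apart from the others.

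Zfp456 was the exception that fell, from 31.67 ± 3.75 to 19.29 ± 6.66 CPM (−0.69 ± 0.28). Gm17039, on the opposite strand over its end, fell by 0.85 ± 0.32, and without strand information the reads of these 2 genes cannot be told apart. The call of each was lost without WT replicate 1, G4 replicate 1 or G4 replicate 2 (−0.55 to −0.61 for Zfp456 and −0.66 to −0.80 for Gm17039), and that of Zfp456 also without WT replicate 3 (−0.73). Neither was called with library totals, DESeq2 or gene-body sums, and Zfp456 was also not called with a looser filter. The 8 Zfp genes that did not pass the test had log2 fold changes from −0.11 (Zfp87) to 0.62 (Zfp759). Among them Zfp738 (116.5 ± 13.7 against 121.4 ± 7.92 CPM) and Zfp729a (132.2 ± 4.79 against 155.8 ± 17.4 CPM) were well covered, with log2 fold changes of 0.06 ± 0.15 and 0.23 ± 0.13. Zfp748, Zfp595, Zfp934, Zfp58 and Zfp759 had at most 33.7 CPM in any group. In alternatives, Zfp729a was called higher with library totals (0.34) and Zfp934 with gene-body sums (0.81). Of the 8, Zfp934 and Zfp87 rose in G4 against G1 (1.11 ± 0.36 and 0.80 ± 0.21). Rsl1, which is in the finger list but not named Zfp, was at 34.29 ± 10.4 CPM in WT and at 37.77 ± 10.4 CPM in G4 (0.13 ± 0.26).

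Zfp87 was the one gene called in G1. Its level was 61.39, 65.77 and 77.84 CPM in WT, 42.87, 28.49 and 38.44 CPM in G1 and 68.41, 55.81 and 66.10 CPM in G4. The G1 libraries were below all others, and G4 overlapped WT. The log2 fold change of G1 against WT was −0.91 ± 0.21, with an adjusted p of 0.00145 in edgeR. The ORR1D2 copy of its 3′ UTR (chr13:67515737-67516075) fell with it, from a mean of 32.06 to 12.28 CPM, and was not called without G1 replicate 2 (−1.15).

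**Figure D5:**
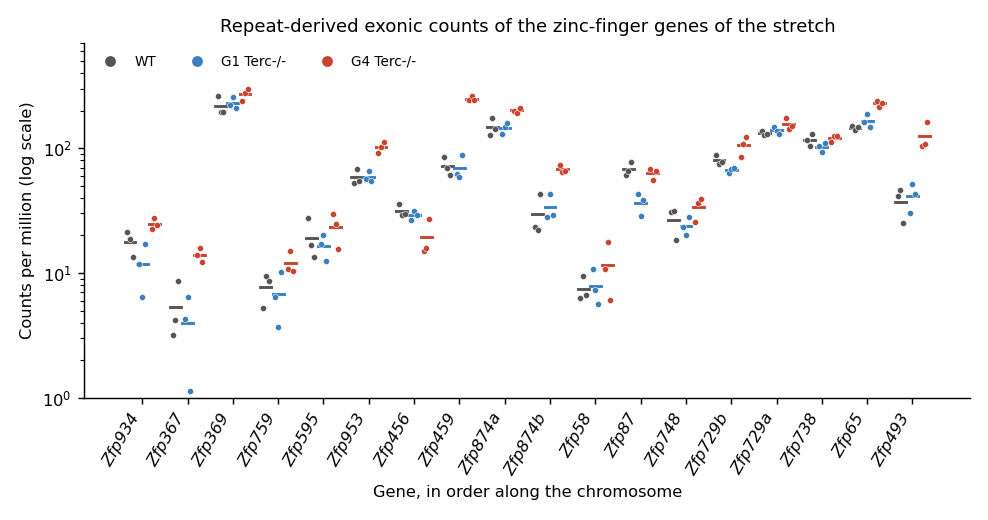
Level of the 18 tested Zfp genes of the stretch in CPM (log scale), summed over repeat copies in their exons and in order along the chromosome; points are libraries and bars the group means for WT, G1 Terc-/- and G4 Terc-/-. Zfp459, Zfp493 and Zfp874b stood clear of both other groups in G4, as did Zfp953, Zfp65, Zfp874a and Zfp367. The libraries of Zfp934 and Zfp759, not called in G4 against WT, were also clear. Zfp87 was lowest in G1.

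Of the other 27 tested genes 12 rose and 3 fell in G4. The largest rises were in genes of low level and unknown function. Gm19792 rose from 1.05 ± 1.04 to 16.1 ± 2.38 CPM (3.83 ± 0.70), F630042J09Rik from 1.28 ± 2.22 to 19.4 ± 1.70 CPM (3.72 ± 0.69) and Gm7240 from 5.01 ± 2.79 to 29.0 ± 5.93 CPM (2.48 ± 0.44). Gm40983, which holds parts of one of the repeat units, was at 10.34 ± 6.05 CPM in WT and at 44.06 ± 8.48 CPM in G4. Gm48734, Gm10037, Gm26715 and Platr25 rose by 1.86 ± 0.56, 1.73 ± 0.53, 1.49 ± 0.39 and 1.49 ± 0.30. Platr25 is named as a pluripotency-associated transcript, and its transcripts translate into 11 finger matches. Gm10037 was no longer called without WT replicate 1 (1.28). For all of these but Gm10037 the difference between G4 and G1 was also called.

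Ctsl, which encodes the lysosomal protease cathepsin L, fell most. Its 13 exonic copies summed to 128.1, 161.8 and 131.7 CPM in WT, 112.5, 123.1 and 104.0 CPM in G1 and 33.14, 29.23 and 23.48 CPM in G4. The 3 groups did not overlap, and the log2 fold change was −2.30 ± 0.18 in G4. All 5 of its tested copies fell, among them a L1MA6 copy (chr13:64363319-64363471) from 38.66 to 6.57 CPM and a RSINE1 copy (chr13:64363477-64363618) from 42.27 to 8.39 CPM, both in the 3′ UTR. Gm47123, an antisense gene over the end of Ctsl, fell with it (19.33 ± 2.10 to 5.88 ± 1.04 CPM), and without strand the reads of the 2 cannot be told apart. Of the 15 cathepsin and Ctla2 genes of the stretch, most of them expressed in placenta, only 2 had a repeat copy in their exons. Of these, Ctsl had enough counts to be tested and Ctla2a did not. The remaining genes of that list could not be read here. The markers of primitive endoderm given above moved in the same direction across the groups, and their part in the fall of Ctsl was not tested.

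Of 26 listed genes of other kinds that neighbour the zinc-finger genes, 7 were tested. In G4 against WT 0 of the 7 passed, neither in edgeR (also 0 at an unadjusted p under 0.05) nor in DESeq2. The list does not hold all such genes. Aaed1, beside Cdc14b but not on the list, rose from 139.0 ± 3.63 to 179.0 ± 25.2 CPM (0.37 ± 0.13). Ctsl, also not on the list, fell as given above. In G4 against G1, however, 3 of the 7 tested genes of the list fell, beside 22.3% falling over all tested genes. The log2 fold changes were −0.70 ± 0.28 for Ercc6l2, −0.70 ± 0.30 for Slc35d2 and −0.58 ± 0.19 for Mterf3. Their adjusted p-values in edgeR were 0.037, 0.049 and 0.013, so the first of these calls and above all the second were near the threshold. Cdc14b, a phosphatase of the cell cycle, was at 159.5 ± 4.13 CPM in WT and at 174.3 ± 7.30 CPM in G4. Mterf3 (55.29 ± 9.98 and 51.31 ± 4.36 CPM) and Mtrr, methionine synthase reductase (57.79 ± 13.6 and 56.64 ± 8.34 CPM), had log2 fold changes of −0.10 ± 0.20 and −0.02 ± 0.21. The MTA_Mm copy in the 3′ UTR of Cdc14b (chr13:64193743-64194120), one of the most abundant of the stretch, was at 106.4, 110.9 and 96.2 CPM in WT and 105.7, 120.9 and 112.5 CPM in G4. Of the other copies among the 6 most abundant, the RLTR33 copy in the 5′ UTR of Zfp874a (chr13:67440386-67441152) and the L1Md_F2 copy in the 3′ UTR of Zfp65 (chr13:67706094-67707127) had log2 fold changes of 0.50 ± 0.15 and 0.61 ± 0.15, the first no longer called without WT replicate 1 (0.42) or 3 (0.34), and the intronic L1_Mus1 copy of Zfp369 (chr13:65297743-65300809) of 0.47 ± 0.12.

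In G1 against WT the 3 copies that rose were an ORR1A3-int copy of a repeat unit (chr13:66370356-66370651), an ORR1A4-int copy (chr13:65333878-65335219) and a MTA_Mm-int copy (chr13:66577693-66578789). The first, next to the Gm33043 start shown above, was at 21.91, 17.79 and 17.31 CPM in WT, 40.76, 33.73 and 53.99 CPM in G1 and 25.32, 34.80 and 25.21 CPM in G4, so that its mean was highest in G1. Its log2 fold change was 1.16 ± 0.27 with an adjusted p of 0.0064 in edgeR, and it was not called without G1 replicate 3 (0.95). The other 2 rose by 0.78 ± 0.23 and 0.66 ± 0.20, with adjusted p-values of 0.0418 and 0.0394 in edgeR, and neither was called without any single WT or G1 library or without G4 replicate 2 or 3. Besides the MMVL30-int and ORR1D2 copies named above, the third copy that fell was RLTR6_Mm (chr13:68232872-68233439), which was named after its values had been seen and lies beside the MMVL30-int copy.

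Genes of the silencing pathway that such zinc-finger proteins use were listed together with some zinc-finger genes, 33 in all. Of these, Zfp808 lies in the stretch and was not tested. The 18 that could be tested lie outside it. In G4 against WT 7 rose, 4 fell and 7 did not pass the test, beside the 24.4% rising and 24% falling over all genes, with a median log2 fold change of 0.24. Suv39h1, an H3K9 methyltransferase, fell most, from 384.5 ± 54.0 CPM in WT and 274.2 ± 5.34 CPM in G1 to 83.0 ± 6.37 CPM in G4. Trim28 rose from 19.79 ± 6.38 to 38.15 ± 6.78 CPM, but it was read through 1 copy. Setdb1 was at 130.3 ± 5.5 CPM in WT and at 155.1 ± 13 CPM in G4 (0.25 ± 0.14). Zfp809, a zinc-finger gene that silences retroviruses, fell by 0.48 ± 0.10, and Rex2, a zinc-finger gene of the cluster on chromosome 4, rose by 2.48 ± 0.35.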

How the data were processed

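RNA-seq libraries of 3 groups of ESCs (3 per group) were used, and columns named Control were taken as WT. The estimated counts per repeat copy were deposited by the authors without normalization, and part of them are not whole. Per the submitters' processing notes, FastQC 0.11.9, STAR 2.5.3a and featureCounts were used with mm10. The study's methods describe an analysis of single copies by uniquely mapped reads, but values that are not whole show that some reads were divided between copies or features here. How they were divided is not given in the sources used here, so values of young or duplicated copies may depend on that step. A second table of normalized values was not used.

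Counts were rounded to whole numbers, filtered with filterByExpr and scaled by TMM on whole-table totals. A quasi-likelihood model over the 9 libraries, with no replicate block, was fitted in edgeR 4.0.16 under R 4.3.3. Tests were two-sided, with Benjamini-Hochberg adjustment over all 13278 tested copies or 4735 tested genes, and a feature was called where the adjusted p was below 0.05. CPM of single copies and genes are TMM scaled, and summed levels are relative to the library total. Copies were placed against GENCODE M21. Starts in the table count from 0, since 42363 neighbouring copies touch on that reading and 4884 on the other, so 1 was added to every printed start. A gene was the sum over copies with at least 0.5 of their length in its exons. The scripts were tested on simulated counts.

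The members and lists were chosen with earlier results of these data known. Named copies were the 6 strongest rises and falls of G4 and the 3 strongest of G1, both relative to WT, among called copies with a mean of at least 10 counts and no overlap between groups, and the 6 most abundant copies. Named genes were all tested Zfp genes and the 8 strongest rises and falls among the others. No protein table was used here, so zinc-finger genes were taken by name, and finger matches in translated transcripts were added later. Alternatives were DESeq2 1.42.0 size factors and its Wald test, library totals, a looser filter, the replicate block, fits of 2 groups, fold rules, copies with whole values, copies by position, gene-body sums and leaving out each library.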

Additional observations from a re-analysis of the deposited data

How the results depend on the processing

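The median of the stretch in G4 against WT was above 0 in every alternative run, and counts of copies moved mainly where fewer copies were tested. In G4 against WT the 99 rises became 40 among copies with whole values and 14 far from genes, and the 14 falls became 7 and 8, and 9 outside exons. The median of 0.77 became 0.8285 with library totals, 0.8701 with a looser filter, 0.6613 for whole values, 1.067 far from genes and 0.9095 outside exons. In G4 against G1 the 81 rises became 36 (whole values) and 12 (far), the 15 falls 8 and 9, and the median 0.7044 (far) and 0.7496 (outside exons). In G1 against WT the 3 rises became 1 with a looser filter, DESeq2, the replicate block, whole values or at least 2-fold, 11 at over 2-fold and an unadjusted p, and 0 far from genes, and the 3 falls became 0 for whole values. The G1 median of 0.11 became 0.0 with a looser filter, 0.007931 for whole values and 0.2507 outside exons, and turned to -0.2336 far from genes. For genes in G4 against WT, the 21 rises became 13 at 2-fold with either p and 41 over gene bodies, and the 4 falls became 2 with library totals, DESeq2 or 2-fold. In G4 against G1, the 20 rises became 11 and 12 at 2-fold, 12 for whole values and 43 over gene bodies, and the 6 falls became 2 with library totals or 2-fold and 3 with a looser filter, DESeq2 or gene bodies. In G1, gene rises became 1 at 2-fold with an unadjusted p and 2 over gene bodies, and the 1 fall became 0 at 2-fold or for whole values and 3 over gene bodies. The cause of these moves, other than the fewer or more features tested, was not tested.

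The summed level was 6311, 6314 and 5534 CPM in WT with DESeq2 factors, with TMM factors and for whole values, and 5927 in G1 and 9459 in G4 for whole values. Leaving out each library in turn gave, in G4 against WT, 94 to 128 rises, 14 to 15 falls and a median of 0.7542 to 0.8948, in G1 against WT 0 to 3, 1 to 3 and 0.114 to 0.1834, and in G4 against G1 73 to 97, 13 to 18 and 0.6209 to 0.6949. Gene rises and falls were 19 to 24 and 2 to 4, 0 to 0 and 1 to 1, and 18 to 23 and 2 to 7 in the same order. Summed levels were 6196 to 6261 CPM in WT, 6823 to 6900 in G1 and 11530 to 11800 in G4.

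Replicate numbers did not pair the libraries: deviations of same-numbered libraries correlated at -0.0153 to 0.0208, and with the replicate block Zfp729b (0.396), ORR1A4-int (0.783) and MTA_Mm-int (0.663) were no longer called. Over all alternatives, 18 named copies called in G4 kept the call in 270 of 278 fits and 21 named genes in 319 of 353, whereas 5 named copies called in G1 kept it in 52 of 76. Zfp738 (-0.039 without WT replicate 2 to 0.164 without WT replicate 3) and Zfp87 (-0.202 without WT replicate 1 to 0.004 without WT replicate 3), neither called, changed sign in G4 against WT. At about 1 count per CPM, small differences in copies of a few CPM could not be detected.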
